A study of Mus musculus with 19 samples.

Results

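The G2M score of single CD8 T cells was followed through every T cell state of the study. The score is a number per cell that the authors computed with Seurat's cell-cycle scoring. It is above 0 where the genes of a G2M list are expressed more than control genes of like abundance, and below 0 where they are expressed less. All cells of the deposited per-cell table were used, 41099 of 41099, and they were grouped by the 13 cluster names that the authors gave. The 3 clusters named Dividing held 4403 cells, and the 10 remaining clusters, called non-dividing here, held 36696.

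The CD8 T cells came from C57BL/6J mice injected with A223, a squamous cell carcinoma that the labels call C57BL/6-derived. In some mice the tumour grew and in others it regressed, and no other treatment, age or sex is given. Tumours were digested with liberase and CD8 T cells were sorted by flow cytometry, giving 3 libraries of growing tumours and 3 of regressing tumours. Spleen T cells gave 1 library from a mouse with a growing tumour, replicate 3, and 2 from mice with regressing tumours, replicates 2 and 3. The 3′ kit was used for growing and regressing tumour replicate 1, and the 5′ kit for all other libraries. The labels do not say whether libraries are separate mice, so p-values measure the spread between these libraries, which may be technical. A single transplanted line is the only tumour here. Libraries held 1655 to 7832 cells, with median UMIs (unique transcript tags) per cell from 4638.5 in regressing spleen replicate 2 to 11712 in growing tumour replicate 3. Of 40102 cell barcodes, 988 (2.46%) occurred in more than 1 library, and no pair of libraries shared more than 1.45% of the smaller one.

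A T cell that has been activated by antigen copies its DNA in S phase, prepares for division in G2 and divides in mitosis, M. Genes of G2 and mitosis include the mitotic cyclins, the kinase Cdk1, DNA topoisomerase Top2a and the proteins of the spindle and kinetochore, and their transcripts accumulate late in the cycle and are lost after division. Naive T cells rest outside the cycle, while effector and exhausted T cells in tumours can hold a dividing fraction. The sources used here do not give the list of genes behind the score, and single genes were not analysed here. The deposited phase call equalled the rule of the S and G2M scores in 100% of cells, but it is made from these scores and is no check of them. The clusters were made from the same cells' genes, so differences in score between clusters are a description and carry no test.

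In tumours the library medians of the G2M score separated the 3 Dividing clusters from one another, and Dividing_1 only narrowly from the other clusters. Over the 6 tumour libraries, the median score of Dividing_2 averaged 0.502 ± 0.0238 (SD of library medians, n = 6). Its medians were 0.50, 0.502 and 0.505 in growing replicates 1, 2 and 3, and 0.465, 0.502 and 0.540 in regressing replicates 1, 2 and 3. These were the highest medians of any cluster in all 6 tumour libraries. Dividing_3 averaged 0.199 ± 0.0772. Its medians were 0.153, 0.149 and 0.310 in growing and 0.182, 0.121 and 0.280 in regressing replicates 1, 2 and 3, so replicate 3 was the highest in both states. Dividing_1 averaged -0.0278 ± 0.00466, below 0 in spite of its name. Its medians ran from -0.0296 to -0.0245 in growing and from -0.0364 to -0.0242 in regressing libraries. The library ranges of these 3 clusters did not overlap with each other or with Naive_3, the next in order, although the lowest Dividing_1 median (-0.0364) and the highest Naive_3 median (-0.0365) were nearly equal. Single cells did overlap: over the pooled tumour cells, quartiles were -0.0601 and 0.0130 in Dividing_1 and -0.0723 and -0.0188 in Naive_3.

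**Figure D1:**
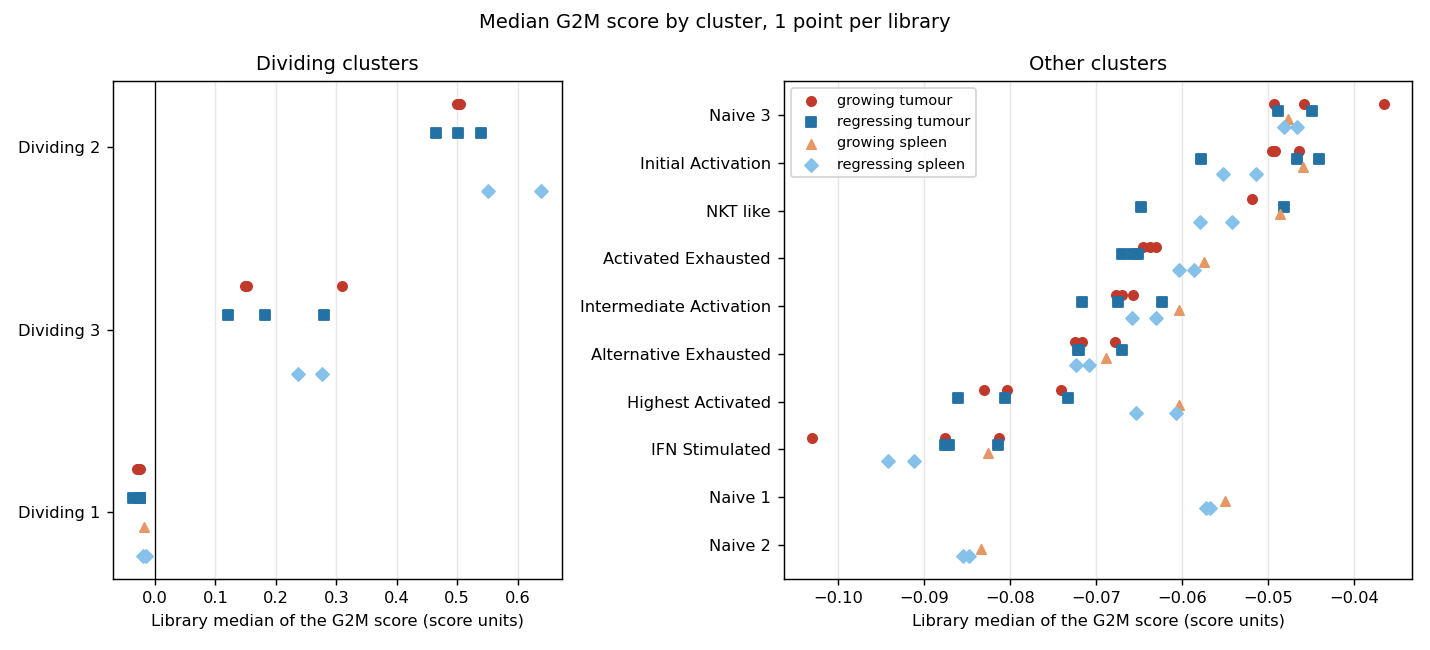
Library median of the G2M score in score units (horizontal axis) for each cluster (vertical axis), with 1 point per library of at least 20 cells, coloured by tissue and tumour state; the 3 Dividing clusters and the other clusters have separate panels with different scales. Dividing_2 lies near 0.502 in tumours and Dividing_3 between 0.121 and 0.310, while all non-dividing medians lie below 0.

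The S score, the same kind of measure for genes of DNA synthesis, told these clusters apart in another way. Dividing_1 had a high S score with a G2M score below 0. Its median S score averaged 0.259 in growing and 0.236 in regressing tumours. Dividing_2 was high in both, with median S scores of 0.371 and 0.380, and 97.6% of its cells over all libraries had both scores above 0. Dividing_3 was high in G2M alone, with median S scores of -0.0576 and -0.0557, and 15.6% of its cells had both above 0. The phase call gives each cell only the larger score. It named 58.2% of Dividing_2 cells G2M and 41.2% S, although 98.7% of them had a G2M score above 0. Of all cells with a G2M score above 0, 29.7% were called S.

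**Figure D2:**
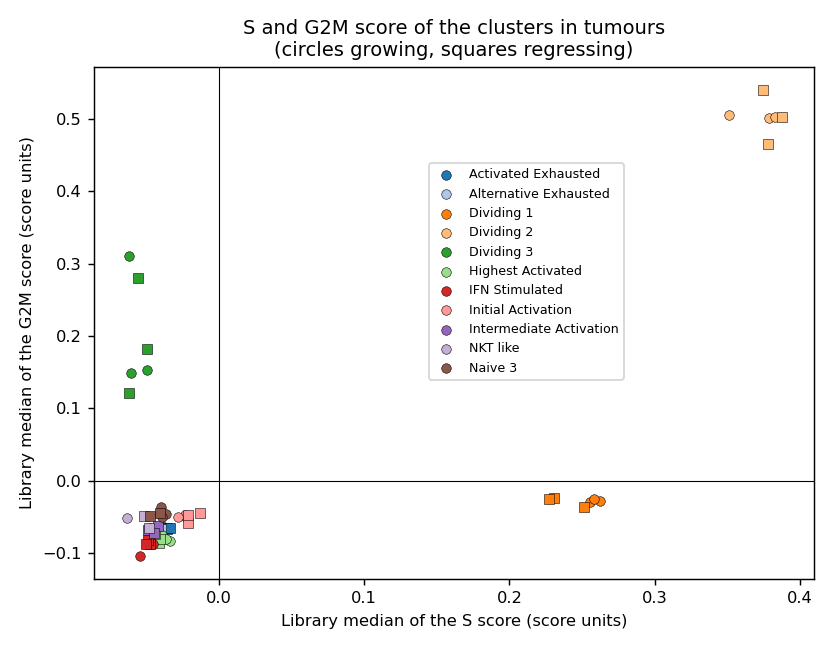
Library medians of the S score (horizontal axis, score units) and the G2M score (vertical axis, score units) in the tumours, with circles for growing and squares for regressing libraries and 1 colour per cluster. Dividing_1 lies at high S and a G2M score near -0.0278, Dividing_2 is high in both, and Dividing_3 has S scores just below 0.

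Within clusters the 2 scores were related in opposite ways. Spearman's rho between them over the cells of a tumour library had a median of 0.437 in Dividing_1 (0.296 to 0.557 over 6 libraries). In Dividing_2 it was -0.421 (-0.496 to -0.278), and in Dividing_3 it was -0.108 (-0.203 to 0.0506). Cells of a library share its depth and the 2 scores are measured on the same transcripts, so these values are descriptions. Dividing_2 cells above 0.5 had a lower median S score than those between 0 and 0.25 in 6 of 6 tumour libraries. The averages were 0.301 ± 0.0226 against 0.420 ± 0.0407 (SD). This restates the negative rho of the same cells and carries no test. The median UMIs of the cells above 0.5 were 0.794 times those of the lower band (0.582 to 1.04, exact sign-flip p = 0.0625).

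Dividing_3 was the most spread of the 3. In tumours 13.3% of its cells scored 0 or less, 44.8% from 0 to 0.25, 13.5% from 0.25 to 0.5 and 28.4% above 0.5. The share above 0.5 ran from 16.5% in regressing replicate 2 to 42.4% in growing replicate 3. Dividing_2 had 50.1% of cells above 0.5 and 0.958% at 0 or less. Dividing_1 had 69.2% at 0 or less and 29.8% from 0 to 0.25.

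**Figure D3:**
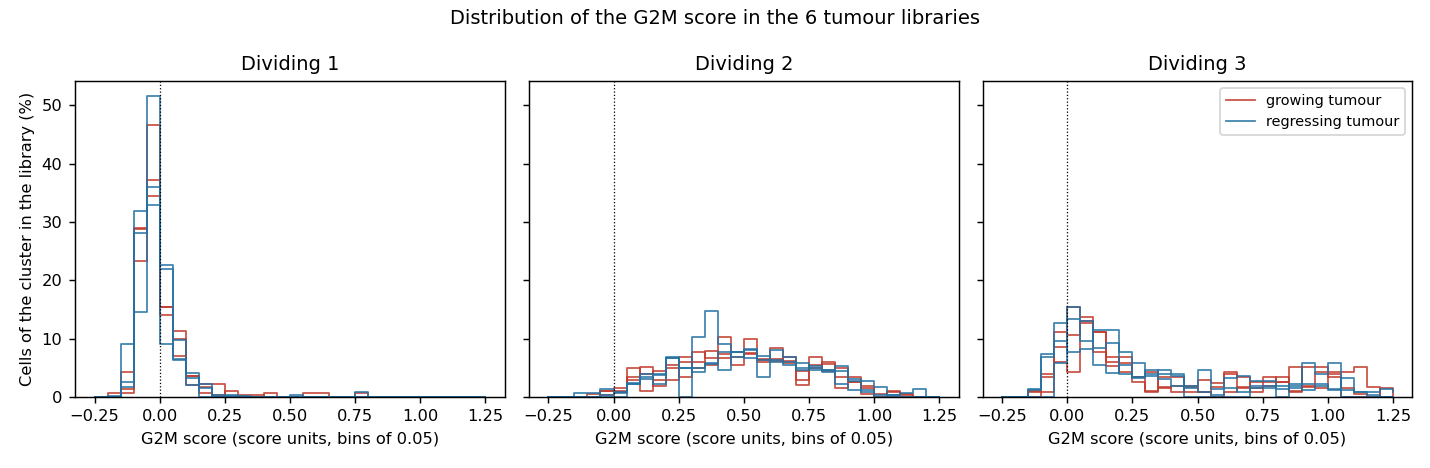
Percent of a cluster's cells (vertical axis) in bins of 0.05 of the G2M score (horizontal axis, score units) for Dividing_1, Dividing_2 and Dividing_3, with 1 line per tumour library coloured by state. Dividing_1 gathers just below 0, Dividing_2 spreads around 0.502, and Dividing_3 has cells both below 0.25 and above 0.5.

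The non-dividing clusters had medians below 0 in a narrow band. From the top, the tumour means of library medians were -0.0450 in Naive_3, -0.0489 in Initial_Activation and -0.0549 in NKT_like. The exhausted and intermediate states followed, with -0.0648 in Activated_Exhausted, -0.0670 in Intermediate_Activation and -0.0705 in Alternative_Exhausted. Highest_Activated (-0.0796) and IFN_Stimulated (-0.0880), the cluster named for interferon response, were the lowest. The only neighbours among these whose ranges did not overlap were Alternative_Exhausted and Highest_Activated. Naive_3 had 5 tumour libraries with at least 20 cells and NKT_like 3. Naive_1 and Naive_2 had none, and in the spleens they averaged -0.0563 and -0.0845. The 3 clusters named for activation thus ran in the reverse of their names in tumours, from Initial_Activation through Intermediate_Activation to Highest_Activated. Median UMIs of the pooled tumour cells rose in the same order (4112.5, 6115 and 7439.5), and their part was not tested. In the spleens Initial_Activation (-0.0509) was again the highest, but Highest_Activated (-0.0621) stood above Intermediate_Activation (-0.0631).

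Cells with a score above 0 were not limited to the Dividing clusters, but high scores nearly were. Of 5508 cells above 0, 2401 (43.6%) were in non-dividing clusters. Initial_Activation held 616 of them and Naive_3 held 583. Of 1891 cells above 0.25, Dividing_2 held 1402 (74.1%), Dividing_3 held 458 (24.2%), Dividing_1 held 17 and the non-dividing clusters held 14 (0.740%). Resting naive cells give the level of such low scores in cells that should not divide. In the spleens 11.3% to 12.6% of Naive_1 cells, 9.47% to 10.5% of Naive_3 cells and 2.12% to 2.95% of Naive_2 cells were above 0. The exhausted, IFN_Stimulated, Highest_Activated and Intermediate_Activation clusters had 0.755% to 5.36% of cells above 0 in tumours, below the Naive_1 and Naive_3 levels of the spleens and on both sides of the Naive_2 level. Whether these shares are background was not tested. Initial_Activation had 6.25% to 18.4% in tumours, above the Naive_1 range in 4 of 6 libraries, with median UMIs per cell of 3511 to 7429 against 3960 to 5526 in spleen Naive_1. Naive cells of the tumours themselves reached similar shares, with 9.06% to 17.4% in the 5 tumour libraries with at least 20 Naive_3 cells. Initial_Activation in the spleens had 7.23% to 13.4%. An excess over naive cells of the same tissue was therefore not shown.

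Shares above 0 in non-dividing tumour cells moved with depth. In 6 of 6 tumour libraries the non-dividing cells above 0 had fewer UMIs than the rest, with a median ratio of 0.719 (0.531 to 0.778, exact sign-flip p = 0.03125). By UMIs per cell, the share above 0 averaged 16.6% below 3000, 9.87% from 3000 to 5000, 4.54% from 5000 to 8000 and 1.92% from 8000 to 12000. At 12000 or more it was 3.31%, with 6.45% and 7.55% in replicate 1 of the growing and regressing tumours, the 3′ libraries. These rest on only 62 and 53 cells, and the 5′ libraries, with 510 to 640 cells, had 0.781% to 2.12%. In Dividing cells of the tumours the ratio was 1.11 (0.996 to 1.25, exact sign-flip p = 0.0625). Within Initial_Activation alone the median ratio in tumours was 0.896 (0.686 to 0.961). Non-dividing spleen cells had ratios of 0.863 to 0.954. Spearman's rho of the score with UMIs was 0.0230 to 0.101 in them, against -0.193 to -0.125 in tumours. Without the Naive clusters the spleen rho was -0.0266 to 0.0133. The scores could not be thinned to 1 depth, and the part of depth in the shares was not tested.

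**Figure D4:**
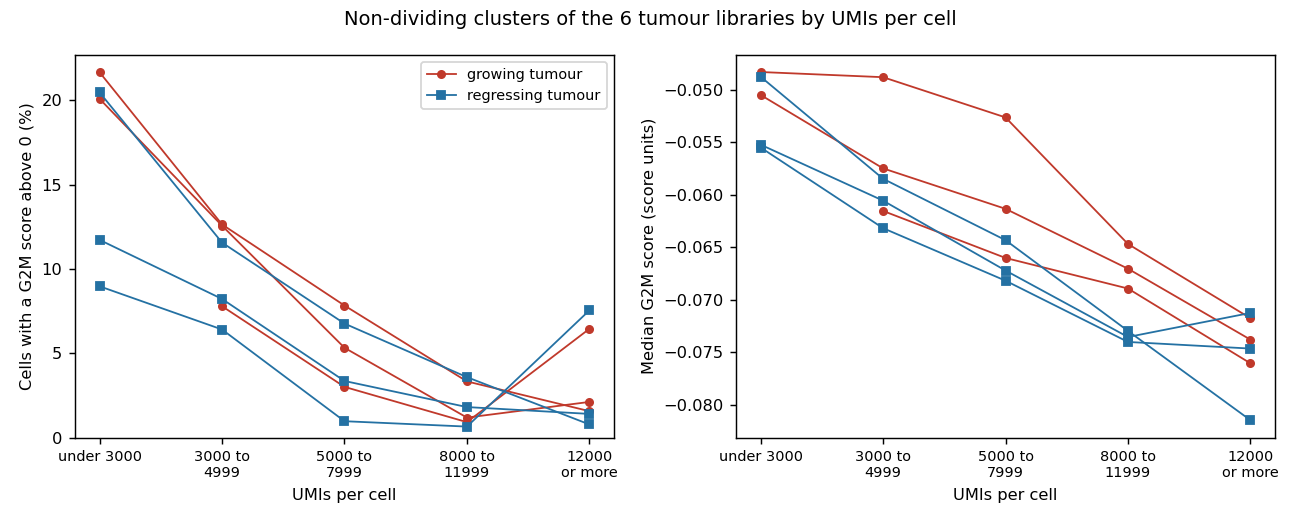
Percent of non-dividing tumour cells with a G2M score above 0 (left) and their median score in score units (right) by stratum of UMIs per cell (horizontal axis), with 1 line per tumour library coloured by state. The mean share above 0 went from 16.6% below 3000 UMIs to 1.92% between 8000 and 12000.

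Growing and regressing tumours were then compared, the contrast around which the study was built. Over all cells, 23.2%, 20.2% and 24.2% were above 0 in growing replicates 1, 2 and 3, and 13.1%, 14.4% and 13.8% in regressing ones. Every growing library was above every regressing one, 22.5% ± 2.11 against 13.8% ± 0.677 (SD, n = 3 each, exact permutation p = 0.10). This exact test of 3 libraries against 3 cannot go lower. The difference was split into a part from the mix of classes, at the average share above 0 of both states, and a part from shares within classes, at the average mix. Dividing cells made up 26.3%, 20.7% and 26.8% of growing replicates 1, 2 and 3, and 12.2%, 14.2% and 10.8% of regressing ones. Of 8.76 percentage points, 8.22 fell to this larger share of Dividing cells in growing tumours. A further 0.478 fell to scores within the 2 classes, with 0.0629 unassigned. Split by cluster, 8.60 points fell to the mix of clusters and -0.199 to scores within them, with 0.360 unassigned. The clusters were made from the same cells' genes, and the Dividing clusters held 99.3% of the cells above 0.25. Cells high in G2M genes are thus counted mostly in the mix, so the split is a description and carries no test.

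Within Dividing cells the states overlapped. Median scores were 0.195, 0.196 and 0.246 in growing replicates 1, 2 and 3, and 0.222, 0.0713 and 0.203 in regressing ones. Regressing replicate 2 stood far below the others, and regressing replicate 1 was above growing replicates 1 and 2. The means were 0.212 ± 0.0289 and 0.165 ± 0.0821, a difference of 0.0467 (exact permutation p = 0.60). Without regressing replicate 2 the difference was -0.000394, and with the 3 clusters weighted equally it was 0.00379. Lower quartiles ran from -0.0264 to 0.0170 and upper quartiles from 0.421 to 0.604 over the 6 libraries. The share above 0 was 74.5%, 73.2% and 76.9% in growing and 77.7%, 66.8% and 68.4% in regressing libraries, a difference of 3.90 points (exact permutation p = 0.40), or 1.26 points with clusters weighted equally.

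The low value of regressing replicate 2 went with its mix of Dividing clusters. Dividing_1, the cluster with G2M scores below 0, made up 43.7% of its Dividing cells and 30.7% to 33.8% in the other 5 tumour libraries. Dividing_2 made up 32.9% there against 38.2% to 43.8%. Neither share differed between the states beyond the spread of the libraries (exact permutation p = 0.30 and 0.20). Within each cluster the states were close. Dividing_2 averaged 0.502 in both, Dividing_3 0.204 ± 0.0917 in growing and 0.194 ± 0.0802 in regressing, and Dividing_1 -0.0271 ± 0.00254 and -0.0285 ± 0.00680 (exact permutation p = 0.90 for each).

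Within non-dividing cells the medians were -0.0653, -0.0642 and -0.0657 in growing and -0.0664, -0.0657 and -0.0667 in regressing replicates 1, 2 and 3. All growing libraries were above all regressing ones, by 0.00121 on average (-0.0651 ± 0.000738 against -0.0663 ± 0.000489, exact permutation p = 0.10). The highest regressing and lowest growing library were nearly equal, and without the Naive clusters, an alternative chosen after the data were seen, the difference was 0.000706 and the libraries overlapped. With the same mix of UMI strata in each library it was 0.00529 (exact permutation p = 0.20). Shares above 0 were 4.85%, 6.33% and 4.91% in growing and 4.06%, 5.74% and 7.18% in regressing libraries (difference -0.300 points, exact permutation p = 0.70). The state difference in median was not shown to differ between Dividing and non-dividing cells (0.0455, exact permutation p = 0.60).

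High scores outside the Dividing clusters were rare in both states. Non-dividing cells above 0.25 numbered 1, 4 and 3 in growing replicates 1, 2 and 3 (0.0758%, 0.118% and 0.237%). They numbered 0, 0 and 2 in regressing ones, where 0 cells allow shares of up to 0.206% and 0.0446%. The shares did not overlap between the states (exact permutation p = 0.10), but they rest on 10 cells. Of these, 4 were among the 48 tumour cells of Naive_1 and Naive_2, and without the Naive clusters the growing shares were 0.0783%, 0.0661% and 0.0858%. At a threshold of 0.1 the shares were 0.303%, 0.325% and 0.475% against 0.138%, 0.179% and 0.262%, again without overlap (exact permutation p = 0.10).

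**Figure D5:**
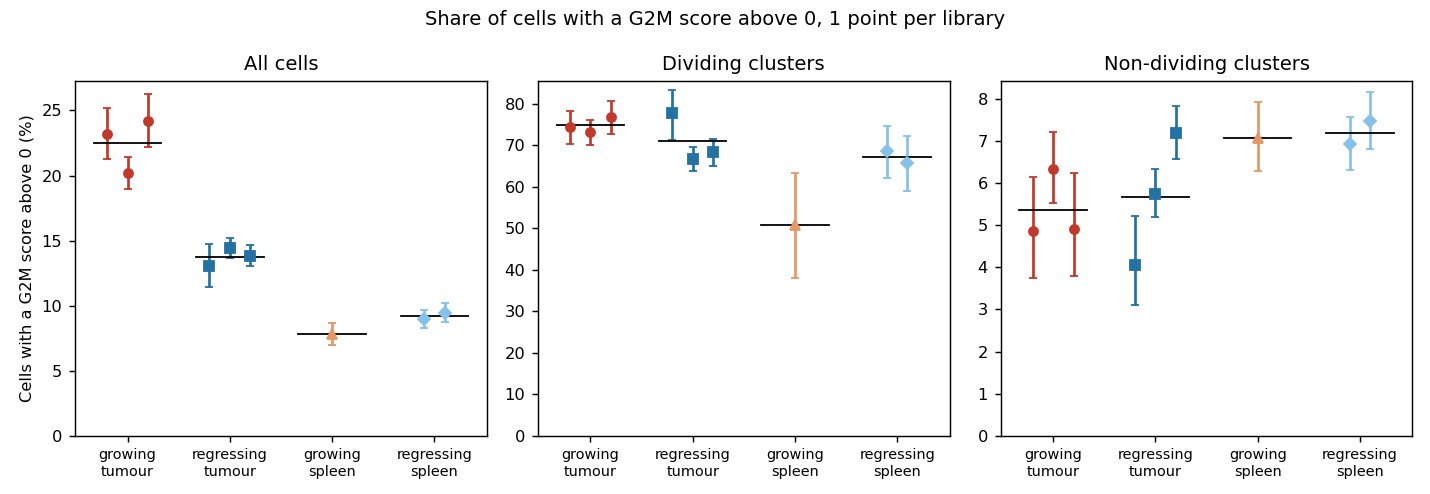
Percent of cells with a G2M score above 0 (vertical axis) in each library by tissue and state, for all cells, Dividing clusters and non-dividing clusters; bars are exact 95% intervals for counting error and black lines are group means. Growing tumours lie at 20.2% to 24.2% of all cells and regressing ones at 13.1% to 14.4%, while the states overlap within each class.

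Of the 10 clusters with enough cells, 1 (10%) had library medians that did not overlap between the states. It was Activated_Exhausted, with -0.0646, -0.0637 and -0.0631 in growing and -0.0670, -0.0651 and -0.0657 in regressing tumours. It was higher in growing tumours by 0.00213 (exact permutation p = 0.10, adjusted p = 0.90 over 10 clusters). Its share above 0 ran the other way, with growing minus regressing differences of -1.58, -0.919 and -1.57 points in replicates 1, 2 and 3 (exact sign-flip p = 0.25). For shares above 0 it was also 1 of 10 (10%), Alternative_Exhausted, which was lower in growing tumours at 1.87% against 3.37% (exact permutation p = 0.10, adjusted p = 1.0). Median UMIs did not overlap in 1 of 10 clusters (10%), Dividing_3, at 12404.5 in growing and 9127 in regressing tumours, and their part in the scores was not tested. limma on the cluster medians called 0 clusters, with 0 at an unadjusted p under 0.05 (smallest 0.154).

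Tumour and spleen were compared over the 5′ libraries, 4 of tumour and 3 of spleen. Non-dividing cells scored lower in tumours, -0.0656 ± 0.00102 against -0.0610 ± 0.000813 (exact permutation p = 0.0286, the smallest allowed). The class held different clusters in each tissue. Over all 6 tumour libraries, including the 3′ ones, clusters other than Naive made up 19578 of 20626 non-dividing cells. In the 3 spleens they made up 6165 of 16070. Without the Naive clusters the difference was -0.00380 (exact permutation p = 0.0286). The spleen medians were -0.0600, -0.0616 and -0.0613 in growing replicate 3 and regressing replicates 2 and 3. Tumours were lower in 3 of 3 same-numbered pairs, for which the exact sign-flip p cannot go below 0.25. With the same mix of UMI strata in each library the difference of -0.00462 was -0.00192 (exact permutation p = 0.543). The direction changed with UMIs per cell. Tumour medians were higher below 3000 (-0.0552 to -0.0483 against -0.0674 to -0.0649) and from 3000 to 5000 (-0.0606 to -0.0488 against -0.0647 to -0.0621). They overlapped with the spleens from 5000 to 8000. From 8000 to 12000 they were lower (-0.0735 to -0.0647 against -0.0611 to -0.0551), as they were at 12000 or more.

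Medians did not overlap between the tissues in 4 of 11 clusters (36.4%), all lower in tumours. Highest_Activated differed most among the non-dividing ones. Its medians were -0.0831, -0.0803, -0.0806 and -0.0733 in growing tumour replicates 2 and 3 and regressing replicates 2 and 3, against -0.0604, -0.0607 and -0.0653 in the spleens, a difference of -0.0172. Its share above 0 was 3.88% ± 0.972 in tumours and 8.89% ± 0.916 in spleens. Both gave an exact permutation p of 0.0286, with adjusted p = 0.105 and 0.157 over 11 clusters. Within strata of UMIs per cell, a check chosen after these values were seen, the medians of this cluster did not overlap in 4 of 4 strata that could be compared, with differences from -0.0246 to -0.0114, and its shares did not overlap in 2 of them. The other 3 were Activated_Exhausted (-0.00558), Dividing_1 (-0.0107, with -0.0289 against -0.0181) and Dividing_2 (-0.0832, with 0.512 against 0.595). The exact permutation p was 0.0286, 0.0286 and 0.0667 (adjusted p = 0.105, 0.105 and 0.183). Dividing_2 rests on the 2 regressing spleens. The growing spleen had 14 such cells with a median of 0.349, below every tumour library, and with a minimum of 10 cells Dividing_2 was no longer separated. Within UMI strata the medians of the tissues overlapped for Activated_Exhausted in 3 of 3 strata, with differences from -0.00497 to -0.00161. Its shares above 0 were higher in tumours there. They were 6.97% against 1.33% from 3000 to 5000 UMIs, 4.92% against 3.95% from 5000 to 8000 and 3.18% against 0% from 8000 to 12000. These did not overlap in the first and last stratum (exact permutation p = 0.10 and 0.133), with 2 spleen libraries in each. The medians also overlapped for Dividing_1 in the 1 stratum that could be compared, where the difference was -0.0158, larger than over all its cells.

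Dividing cells as a whole went the other way. Their median was 0.179 ± 0.0751 in tumours and 0.0511 ± 0.0442 in spleens, higher in tumours by 0.128 (exact permutation p = 0.114). The libraries overlapped, as regressing tumour replicate 2, at 0.0713, was below the regressing spleens. Over same-numbered pairs the difference was 0.122 (exact sign-flip p = 0.50). With the same mix of UMI strata the difference was 0.0474 (exact permutation p = 0.486), and for means it was 0.0748. The spleens held more of the low-scoring Dividing_1 among their Dividing cells, at 64.6%, 47.9% and 44.4% in growing replicate 3 and regressing replicates 2 and 3. Their Dividing medians were 0.0000737, 0.0770 and 0.0763. The growing spleen had 65 Dividing cells, of which 50.8% were above 0 (exact 95% interval 38.1 to 63.4), against 68.7% and 65.9% in the regressing spleens. With 1 growing spleen no test was made.

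Shares above 0 did not overlap between tissues in 3 of 11 clusters (27.3%). Beside Highest_Activated these were NKT_like, at 11.3% in tumours and 6.48% in spleens, and Alternative_Exhausted, at 2.93% and 0.667%. The last was at 0 in both regressing spleens, which allows up to 1.94% and 2.26%. Median UMIs did not overlap between tissues in 2 of 11 clusters (18.2%). NKT_like cells had 5319 in tumours and 6557 in spleens, and Dividing_2 cells had 15590 and 10866. The part of this depth in their scores was not tested.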

How the data were processed

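Single-cell expression libraries of CD8 T cells were processed with Cell Ranger, per the submitters' processing notes. Its version, the genome build and how doublets were treated are not given in the sources used here. Doublets were neither called nor taken out. The deposited table gives per cell the count of UMIs and of genes, not normalized by the authors, and the percent of UMIs from mitochondrial genes, computed by the authors. Each cell's S and G2M score and the cluster names are deposited by the authors and, per the file headers, come from Seurat and Monocle. The lowest number of genes in a cell was 501. The variant tables of cultured A223 cells were not used here.

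Medians, quartiles and shares above 0 were computed per library, and libraries were the replicates. Cluster and library combinations under 20 cells gave no value. Tests were two-sided exact permutation or sign-flip tests, with Benjamini-Hochberg adjustment over clusters; limma 3.58.1 (R 4.3.3) was an alternative. Scores are compared by differences. Exact Clopper-Pearson 95% intervals and the limit of 3 counts for a count of 0 cover counting error only. Python 3.11.15, pandas 2.3.3, NumPy 2.4.6, SciPy 1.17.1 and matplotlib 3.10.9 were used. On simulated data, 4 of 4 shifted clusters of 9 were recovered. The planted shifts were far larger than the state differences in cluster medians found here. The power to find differences as small as those was therefore not tested. All clusters were named. The clusters, classes and tests were chosen with earlier results of these data known.

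For same-numbered growing and regressing tumours, the cluster medians' deviations from their state mean had correlations of 0.214, 0.983 and 0.904 (replicates 1, 2 and 3, over 9 clusters). Differently numbered tumours gave -0.993 to 0.989. Dividing_3 varied most, with tumour medians over a range of 0.189, against 0.0751 in Dividing_2 and 0.0217 in IFN_Stimulated, the next. The correlations thus rest largely on Dividing_3 and cannot show that same-numbered libraries are related. By the rule that each same-numbered pair exceeds 0.1, numbers were used as a block in an alternative fit, although different numbers reached as high a value and replicate 1 of both states shares the 3′ kit.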

Additional observations from a re-analysis of the deposited data

Results flagged for a closer look

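Values for 5 measures moved one way between tumour and spleen in the growing pair (replicate 3) and the opposite way in both regressing pairs (replicates 2 and 3). With 1 growing pair these differences were not tested. The median of IFN_Stimulated was lower in the tumour by a difference of -0.0204 in the growing pair, and higher by 0.00981 and 0.00707 in the regressing pairs; the growing tumour library held 28 such cells. The median of Initial_Activation differed by -0.00325 in the growing pair and by 0.00866 and 0.00736 in the regressing pairs. Its share above 0 differed by -4.12 percentage points against 6.36 and 5.0. The share above 0 of Dividing_1 differed by 6.64 percentage points against -2.17 and -13.3, with 42 cells in the growing spleen. In non-dividing cells without the Naive clusters the share above 0 differed by -1.82 percentage points against 0.334 and 0.260.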

How the results depend on the processing

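Shares above 0 in non-dividing tumour cells differed with UMIs per cell, single-cell scores could not be thinned, and the part of depth was not tested. Having 3 libraries a group limits every test. Without each tumour library in turn, the Dividing state difference in median ranged from -0.000394 to 0.0749, and its difference from the non-dividing one from -0.00187 to 0.0737; both were below 0 only without regressing replicate 2. With clusters weighted equally they were 0.00379 and 0.00398, and in the 5′ libraries 0.0834 and 0.0822. The non-dividing state difference in median ranged from 0.000802 to 0.00152, but was -0.000187 with clusters weighted equally and -0.000895 for the upper quartile. It was 0.00529 with the same mix of UMI strata and 0.00220 for means. The Dividing share difference ranged from 1.81 to 7.28 points and was 1.26 with clusters weighted equally and 7.46 in the 5′ libraries. The non-dividing share difference of -0.300 points ranged from -1.10 to 0.460, above 0 only without regressing replicate 3. It was 1.81 with the same mix of UMI strata, 0.175 for shares above 0.1 and 0.134 above 0.25. The count of clusters separated by state was 1 without each of the 6 libraries, and 0 with means, with limma and with limma and the replicate block. With that block, the adjusted limma p was 0.918 for the Dividing and non-dividing medians, 0.820 for the Dividing share and 0.962 for the non-dividing share. The calls for these class comparisons did not change. The Dividing difference between tumour and spleen ranged from 0.102 to 0.164 without each library, and was 0.138 with all 6 tumour libraries (exact permutation p = 0.0357), 0.0474 with the same UMI strata (p = 0.486, exact) and 0.0748 for means. With clusters weighted equally it was -0.0107, as only Dividing_1 had 20 cells in each library. The non-dividing difference between the tissues ranged from -0.00507 to -0.00416 without each library (exact permutation p from 0.0667 to 0.10, the smallest these designs allow). It was -0.00507 over same-numbered pairs as a replicate block (exact sign-flip p = 0.25, the smallest 3 pairs allow), -0.00293 for means (exact permutation p = 0.0857), -0.00192 with the same UMI strata (p = 0.543, exact) and -0.00322 with clusters weighted equally (p = 0.0571, exact). The count of clusters separated by tissue ranged from 3 to 5. The cause of these changes was not tested.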

Other observations

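Receptor labels allowed the score to be read by clone in the 4 tumour libraries of the 5′ kit. In non-dividing cells, those of clonotypes that the authors named had lower medians than other labelled cells in 4 of 4 libraries, by differences of -0.00416 and -0.00474 in growing replicates 2 and 3 and -0.00292 and -0.00829 in regressing replicates 2 and 3 (exact sign-flip p = 0.125, the smallest that 4 libraries allow). In Dividing cells the difference was higher in 2 of 4 libraries, with a mean of -0.0326 (exact sign-flip p = 0.875). Named and other cells were not matched for cluster or UMIs, and the part of either in these differences was not tested. The 3 largest clones had 20.1%, 15.4% and 10.9% of cells above 0 in growing replicate 2, from the largest, and 28.9%, 24.7% and 12.2% in growing replicate 3. They had 13.0%, 10.6% and 15.6% in regressing replicate 2 and 13.3%, 8.97% and 14.8% in regressing replicate 3, so the clones of the states overlapped. Their shares of Dividing cells were 23.7%, 13.6% and 11.6%, 41.0%, 27.9% and 15.6%, 12.0%, 10.6% and 15.1%, and 13.1%, 5.98% and 13.0% in the same order. Cells of a clone share their library, so no test was made between clones.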
